A study of Schizosaccharomyces pombe with 6 samples.

Results

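Small RNAs were examined at the ends of chromosomes I and II of the fission yeast Schizosaccharomyces pombe, in non-coding sequence outside the tlh1 and tlh2 genes. The regions were 31 of the 11033 peaks of the deposited list. A peak was taken when it lay whole within windows of 17.3 to 18.1 kb from the left end of chromosome I, 5.07 to 6.26 kb from its right end or 11.7 to 22.1 kb from the right end of chromosome II. It was left out when it touched tlh1 or tlh2, the telomere-linked helicase genes. Within the windows the choice used position alone, but the windows were set with earlier results of these data known. Their limits mostly fall on edges of the peaks. Of the 31 peaks, 28 overlapped an annotated long non-coding RNA (lncRNA) gene and 3 overlapped no annotated feature.

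The library labelled dcr delta came from strain spb309 at 30 °C. Wild-type strain spb75 gave 1 library after 8 hours at 37 °C and 1 after 7 days at that temperature. The wild-type libraries at 30 °C were 1 of strain spb80 and 2 of strain spb75. All cultures grew in YES medium to an optical density of 0.5, and RNA of 18 to 28 nt was isolated from total RNA. The labels give no other allele of these strains, do not say which wild type is the parent of spb309, and do not say whether libraries came from separate cultures. The p-values below therefore measure the spread between these libraries, which may be technical, and a group of 1 library was assumed to vary like the others. Reads over all peaks numbered 5790804 to 15723318 per library, and the median peak held 19 to 47 reads.

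The Dicer gene dcr1 did not lack reads in the library labelled dcr delta. Its 5 peaks held 246 reads there, against 81 in spb80 and 74 and 58 in the spb75 replicates at 30 °C. Which bases of the locus the deletion removes is not given in the labels, and the library is called by its label throughout.

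In fission yeast, transcripts of heterochromatic repeats are made double-stranded by an RNA-dependent RNA polymerase and cut by Dicer into small interfering RNAs (siRNAs). The siRNAs guide the Argonaute-containing RITS complex to nascent transcripts, and the Clr4 complex methylates histone H3 lysine 9 there. Subtelomeres are heterochromatic domains inside the telomere repeats, where this pathway acts beside Taz1, a protein that binds telomeric DNA. The tlh genes contain a stretch related to the centromeric dg and dh repeats.

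The 31 peaks fell into 4 blocks. At the left end of chromosome I, 5 peaks covered 326 bp of a span of 710 bp, 4 of them in SPNCRNA.2012, a lncRNA of the minus strand. At the right end of chromosome I, 11 peaks covered 707 bp of 1188 bp, 10 of them where the convergent lncRNAs SPNCRNA.4507 (plus strand) and SPNCRNA.4508 (minus strand) are annotated. At the right end of chromosome II, an inner block of 13 peaks covered 777 bp of 1230 bp in SPNCRNA.6641 (minus strand), with 11 also in SPNCRNA.6640 (plus strand). The last block was an outer pair of peaks, chrII:4524885-4524975 and chrII:4525417-4525548, nearer to tlh2. The first of the pair touched lncRNA SPNCRNA.6645 and the pseudogene SPBCPT2R1.07C, and the second touched no feature. The peaks were 32 to 157 bp wide with a median of 58 bp. Their median GC content was 42.4%, against 38.6% over all peaks of the list. The file marks every peak as plus strand, so reads of sense and antisense RNA cannot be told apart.

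The blocks are repeated sequence. Over 815 bp, the right end of chromosome I matched the inner block of chromosome II at 809 positions without a gap (99.3% identity). Over 710 bp, the right end of chromosome I matched the left end in inverted orientation at 706 positions (99.4%). The whole span of the outer pair, 664 bp, was identical (100%) to a stretch of the minus strand at chrI:7001-7664, next to tlh1, which 2 peaks outside the 3 windows overlap. Of the 31 peaks, 26 had an exact copy elsewhere in the genome and 5 had none. Of their 1382 sequence words of 22 nt, about the length of an siRNA, 1334 occurred more than once in the genome, 134 of them (from 14 peaks) also in a tlh gene and 6 in the pericentromeric repeats. In the 3 chromosome sequences searched, none occurred elsewhere on the arms or in the part of II taken as the silent mating-type region. Whether that part holds every repeat of the region was not checked.

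The most abundant stretch is shown with its copies, since the peaks it falls in carried the highest levels of 2 of the blocks. Sequences are from RefSeq assembly ASM294v3. The build of the file is not given in the sources used here, but all 8 groups of peaks with identical values in every library had 1 identical sequence at these coordinates. The lines give chrI:5573573-5573690 (plus strand), chrI:17719-17836 (minus strand) and chrII:4518402-4518519 (plus strand). Capitals mark bases that differ from the first line, counted from its 5′ end: C114T in the second line, and A46T, T52C, G61T, T66C and C114T in the third.
right end of I: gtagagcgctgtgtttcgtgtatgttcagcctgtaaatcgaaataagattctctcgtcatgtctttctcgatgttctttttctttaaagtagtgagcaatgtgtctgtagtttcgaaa
left end of I: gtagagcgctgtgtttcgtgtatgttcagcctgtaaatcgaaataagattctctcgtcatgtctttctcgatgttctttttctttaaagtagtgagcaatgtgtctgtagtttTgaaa
inner block of II: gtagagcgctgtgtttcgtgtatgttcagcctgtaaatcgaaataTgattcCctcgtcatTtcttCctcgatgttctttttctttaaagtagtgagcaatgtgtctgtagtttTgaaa

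A pair of peaks that differ by 1 base is shown because reads that cover that base can be told apart between the copies. They are chrI:5573100-5573157 in SPNCRNA.4507 and SPNCRNA.4508 and chrII:4517929-4517986 in SPNCRNA.6640 and SPNCRNA.6641, both plus strand. The capital marks C28T, the base of the chromosome I copy first.
right end of I: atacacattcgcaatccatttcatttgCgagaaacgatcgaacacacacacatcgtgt
inner block of II: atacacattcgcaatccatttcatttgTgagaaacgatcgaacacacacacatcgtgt

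The 40 bp peak chrI:5573443-5573482 (plus strand) is shown because its sequence occurs unaltered in 3 blocks, at chrI:17927-17966 on the minus strand and at chrII:4518272-4518311. The outer peak chrII:4525417-4525548 (plus strand) is shown because its level set the outer pair apart from the others. No capitals are used in these lines.
3-copy peak: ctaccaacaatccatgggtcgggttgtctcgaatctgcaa
outer peak of II: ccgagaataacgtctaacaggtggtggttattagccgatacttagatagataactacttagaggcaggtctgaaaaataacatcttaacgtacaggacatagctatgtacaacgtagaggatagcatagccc

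From the values, reads with several matches appear to have been shared out in fractions before deposit, and copies that are identical held equal values. The 31 peaks had 23 distinct sets of values, and 16 peaks fell into 8 groups of equal values. Peaks of a group are 1 measurement, not several. Which chromosome end made a read of an exact copy cannot be told from these data.

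Small RNAs of the subtelomeric lncRNAs were nearly absent from the library labelled dcr delta. The 31 peaks together held 18.1 reads there, fractions included, or 0.000254% of the reads over peaks (95% Wilson interval 0.00016 to 0.0004%). In the wild-type libraries at 30 °C they held 0.0462% ± 0.00335 (SD, n = 3), with 0.0423% in spb80 and 0.0482% and 0.048% in the spb75 replicates. Without the outer pair, whose spb75 replicates differed as given below, the other 29 peaks held 0.000243% in the library labelled dcr delta, against 0.0388% in spb80 and 0.0391% and 0.0476% in the spb75 replicates. With and without the pair, the library labelled dcr delta lay far below all 3 wild-type libraries. Intervals and bounds cover counting error only and leave out variation between cultures and libraries. The reads also carry no molecular identifiers. An exact permutation test of 1 library against 3 cannot go below p = 0.25, so the share was not tested.

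Summed over the 31 peaks and scaled between libraries, the normalised reads were 19.96 in the library labelled dcr delta, against 3899 in spb80 and 4605 and 2751 in the spb75 replicates at 30 °C. The sum was 188-fold lower than the wild-type mean (95% Poisson interval of the lower count 119 to 318). By block, the sum was 151-fold lower (69.9 to 415) at the left end of I, 276-fold lower (111 to 1050) at the right end of I and 138-fold lower (67.7 to 347) in the inner block of II. These intervals overlap, so no order of the blocks can be read from them. The library make-up differed as well. In the library labelled dcr delta 58.0% of reads over peaks lay on rRNA genes and 24.8% on tRNA genes, against 27.9% ± 4.4 and 34.9% ± 3.76 in wild type at 30 °C (SD, n = 3). Its part in the result was not tested.

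**Figure D1:**
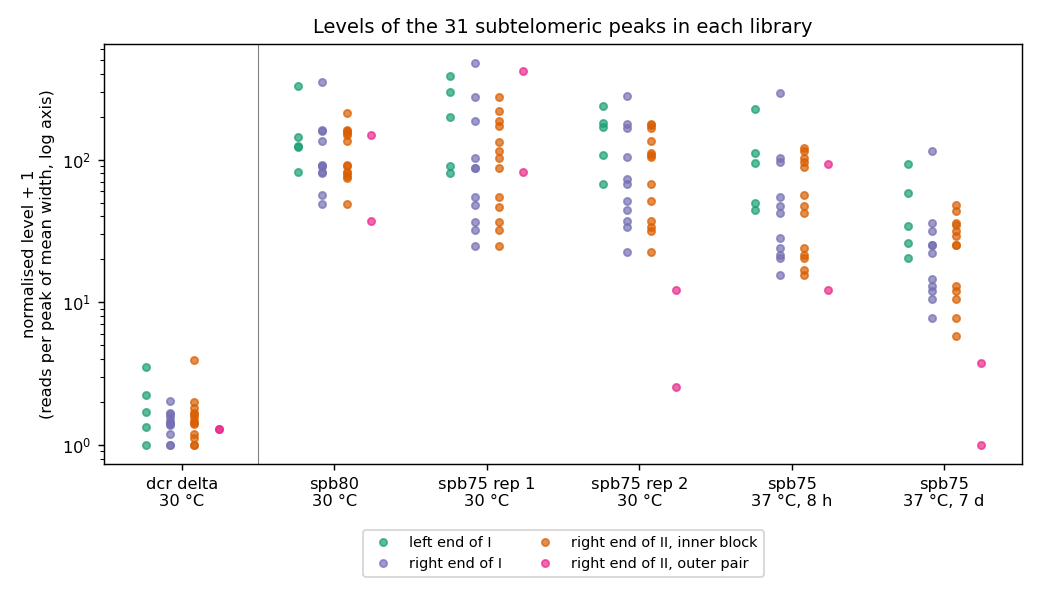
Normalised level plus 1 (log axis, reads per peak of mean width) of each of the 31 peaks in the 6 libraries, coloured by block. For each peak, the point of the library labelled dcr delta lies under those of the wild-type libraries at 30 °C. The outer pair of II lies apart from the other blocks in spb75 replicate 2 and after 7 days at 37 °C.

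Peak by peak, all 31 were lower in the library labelled dcr delta than in each of the 3 wild-type libraries, as were 31.2% of all 8274 peaks tested. By limma, with p adjusted by Benjamini-Hochberg over the 8274 peaks and a threshold of 0.05, 27 of the 31 peaks fell (20 of 23 distinct sets), against 0.87% of tested peaks that were called lower. Their fitted log2 ratios of signal ran from -7.47 to -4.84 with a median of -5.91, and the median over all tested peaks was -0.07. In the library labelled dcr delta 5 of the 31 peaks held no read and 28 held less than 1. With those 28 set at bounds computed from 3 reads in that library, the median log2 ratio over the 31 peaks was -4.37 in place of -5.88, and the bounds ran from 8.99-fold to 107-fold. The highest bound was that of the outer peak chrII:4525417-4525548, which was 44.7-fold without spb75 replicate 1 and 157-fold without replicate 2, and the next highest was 46.4-fold. The 4 peaks not called were the edge peak of the block on I farthest from the chromosome end, which stops at position 5572943, its copy on II, which stops at position 4517772 (each -4.26, limma adjusted p = 0.0731), and the outer pair, chrII:4524885-4524975 (-3.94, adjusted p = 0.791) and chrII:4525417-4525548 (-6.13, adjusted p = 0.289).

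**Figure D2:**
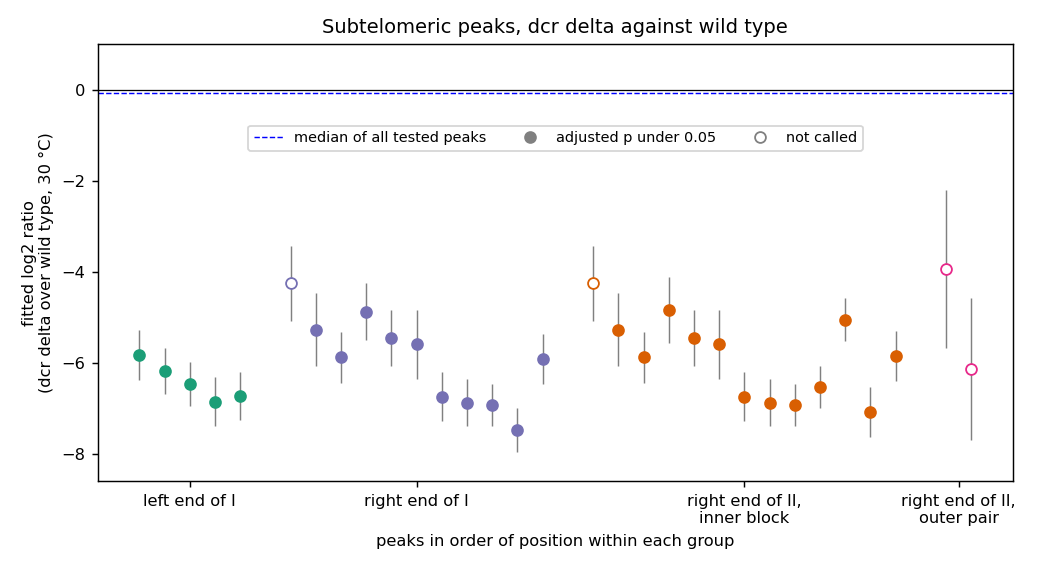
Fitted log2 ratio, dcr delta over wild type at 30 °C, with its standard error for each of the 31 peaks in order of position within its block. Filled points have a limma adjusted p under 0.05 and open points do not; the dashed line is the median of all tested peaks at -0.07.

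The levels that follow are normalised reads per peak of mean width, so that peaks of different width can be compared. Counting intervals of single peaks used reads rounded to whole numbers, while the fold used the fraction. The peak chrI:5573573-5573690, where the convergent lncRNAs SPNCRNA.4507 and SPNCRNA.4508 overlap in part, had 1.015 in the library labelled dcr delta, against 348.5 in spb80 and 474 and 276 in the spb75 replicates at 30 °C. It had the largest fitted ratio of the 31, -7.47 (SE 0.49, limma adjusted p = 0.000199), and was 361-fold lower, with a counting interval of 79.7 to 2380 from 1.53 reads. In spb75 its level was 474 and 276 at 30 °C, 290 after 8 hours and 115 after 7 days at 37 °C. After 8 hours it lay between the replicates at 30 °C, and after 7 days below both.

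The peak chrI:17694-17850 in SPNCRNA.2012, which holds the copy of that stretch at the left end, had 2.51 in the library labelled dcr delta, against 326 in spb80 and 385 and 236 in the spb75 replicates. It fell by 6.47 on the log2 scale (SE 0.48, limma adjusted p = 0.000199), 126-fold with a counting interval of 56.1 to 404. In spb75 it had 385 and 236 at 30 °C, 226.5 after 8 hours and 92.6 after 7 days at 37 °C. After 8 hours and after 7 days it lay below both replicates at 30 °C. It too has 3 words that occur in the pericentromeric repeats.

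The corresponding sequence in SPNCRNA.6640 and SPNCRNA.6641 on chromosome II was divided between adjacent peaks. The peak chrII:4518402-4518460 had 0.996 in the library labelled dcr delta, against 210.5, 170.5 and 174 in spb80 and the spb75 replicates, and fell by 6.54 (SE 0.47, limma adjusted p = 0.000199). The peak chrII:4518475-4518567 had 2.95, the highest level of the 31 in that library, against 152, 131 and 110 in spb80 and the spb75 replicates. It fell by 5.05 (SE 0.48, adjusted p = 0.000446), 44.4-fold with a counting interval of 15.2 to 144 from 3.5 reads. After 8 hours and 7 days at 37 °C the first had 88.2 and 33.6, and the second 55.9 and 28.0.

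The 3-copy peak shown above, chrI:5573443-5573482 with its copy chrII:4518272-4518311, had 0.653 in the library labelled dcr delta, against 159 in spb80 and 273 and 165 in the spb75 replicates. It fell by 6.87 (SE 0.52, limma adjusted p = 0.000199). The peak over the same sequence at the left end, chrI:17929-17965 in SPNCRNA.2012, had 0.706, against 143, 295 and 179, and fell by 6.85 (SE 0.54, adjusted p = 0.000213). These peaks also had the largest ratio after 7 days outside the outer pair, described below. The peak chrI:5573536-5573571 in the overlap of SPNCRNA.4507 and SPNCRNA.4508 had 0.435, against 160.5, 185.5 and 175, and fell by 6.93 (SE 0.47, adjusted p = 0.000199). The peak chrI:17662-17693 in SPNCRNA.2012 had 1.22, against 123, 197.5 and 168, and fell by 6.18 (SE 0.50, adjusted p = 0.000222). In each of these peaks, every wild-type library stood far above the library labelled dcr delta.

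The pair that differs by 1 base had reads on both chromosome ends. The copy on chromosome I held 0.5 reads in the library labelled dcr delta, against 54.1 in spb80 and 62.8 and 35.95 in the spb75 replicates. The copy on chromosome II likewise held 0.5 reads, against 73.6 in spb80 and 60.8 and 25.2 in the spb75 replicates. In signal they fell by 4.88 (SE 0.62, limma adjusted p = 0.00419) and fell by 4.84 (SE 0.72, adjusted p = 0.012). In spb75 at 37 °C the copy on I held 17.9 reads after 8 hours and 7.7 after 7 days, and the copy on II 10.4 and 2.7. A part of each peak is shared with the other, so these reads are not wholly independent. Some reads of the copy on I may also come from a tlh gene. The calls of both were lost without spb75 replicate 1, and that of the copy on II also without spb80, with log2 ratios of -4.90 to -4.51. The copy on II was also not called with a pseudocount of 10 (-2.43, adjusted p = 0.0943) or with the constant of 8 that 2 columns of the file carry left in (-2.81, adjusted p = 0.107).

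Regions near the 31 peaks gave the following values in the same comparison. All 4 tlh1 and tlh2 peaks fell (median log2 ratio -7.07), and all 40 pericentromeric peaks fell (median -7.16). Of the 12 other peaks within 50 kb of an end of chromosome I or II, 0 were called by limma, 3 had an unadjusted p under 0.05, and the median was 0.39. Among those 12, the lowest ratio was -6.14, at the copy of the outer peak on chromosome I, chrI:7004-7131. Differences between these groups were not tested.

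Over the 6 libraries, log2 levels of the single peaks correlated with the median profile of the 31 at Pearson r of 0.646 to 0.999, with the lowest values in the outer pair. Outside the 31, the 5 peaks most like that profile were chrII:1641211-1641366 on SPNCRNA.373 and SPNCRNA.5276 (r = 0.9996), chrI:3761618-3761773 on SPNCRNA.231 and SPNCRNA.3679 (r = 0.9993), chrIII:1083450-1084046 on SPNCRNA.7196 and SPNCRNA.7197 (r = 0.9983), chrII:3572657-3572720 on SPNCRNA.1616 (r = 0.9967) and chrII:1603413-1603748 on SPNCRNA.359 and SPNCRNA.5254 (r = 0.9943). All but SPNCRNA.1616 lie in pericentromeric repeats. The first had 11.6 in the library labelled dcr delta, against 1697, 1654 and 1208 in spb80 and the spb75 replicates, while SPNCRNA.1616 had 14.7, against 48.2, 49.8 and 46.1. Points of 1 library share its depth and scaling, and the library labelled dcr delta sets most of the range.

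At 37 °C the subtelomeric small RNAs were lower after 7 days, but no single peak passed the test. The 31 peaks held 0.0481% ± 0.000141 of reads in spb75 at 30 °C (SD, n = 2), 0.0136% (0.013 to 0.0143%) after 8 hours and 0.00832% (0.00768 to 0.00903%) after 7 days. The small SD at 30 °C rests on the outer pair, whose replicates differed in the opposite direction to the rest. Without the pair the shares were 0.0433% ± 0.00601 at 30 °C (SD, n = 2), 0.0125% after 8 hours and 0.00827% after 7 days. Over the same series tRNA genes took 35.5% ± 5.09, 67.7% and 58.6% of reads over peaks, which lowers the share of everything else, and their part in the result was not tested. Scaled between libraries, the sum over the 31 peaks was 4605 and 2751 normalised reads at 30 °C, 2194 after 8 hours and 846.9 after 7 days. These sums were 1.68-fold and 4.34-fold below the mean at 30 °C.

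After 8 hours, 26 of the 31 peaks lay below both spb75 libraries at 30 °C, as did 36.8% of tested peaks. The median fitted log2 ratio was -0.82, against 0.01 over all tested peaks. By limma 0 of 31 were called, against 0.121% of tested peaks called lower, and 5 had an unadjusted p under 0.05 in the lower direction (background 5.17%). Among those 5, chrI:5573166-5573231 and chrI:5573354-5573410 each came with an exact copy on II that is the same measurement. The largest ratio was -1.78 (SE 0.60, adjusted p = 0.162), at chrI:5573166-5573231 in SPNCRNA.4507 and SPNCRNA.4508 and its exact copy chrII:4517995-4518060. Their level was 54.0 and 50.1 at 30 °C, 14.5 after 8 hours and 11.1 after 7 days, so that both times at 37 °C lay below both libraries at 30 °C. The smallest ratio was -0.11 (SE 0.54), at chrII:4518903-4518934 in SPNCRNA.6641, with 114 and 133 at 30 °C, 114.5 after 8 hours and 46.7 after 7 days. Its sign changed with the choice of control library. The peak has exact copies at chrI:3045-3076, inside tlh1, and chrII:4529471-4529502, inside tlh2, so its reads may come from those genes.

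After 7 days, 29 of the 31 peaks passed the filter on low signal. The 2 left out were the edge peak that stops at position 5572943 of I and its copy that stops at position 4517772 of II, with 23.8 and 21.7 at 30 °C, 19.5 after 8 hours and 6.80 after 7 days. All 29 lay below both spb75 libraries at 30 °C, as did 37.7% of tested peaks, and the median log2 ratio was -1.93, against -0.03 over all tested peaks. By limma 0 of 29 were called (background 0.0%), and 26 of 29 had an unadjusted p under 0.05 in the lower direction (background 6.26%). The 29 peaks held 22 distinct sets of values, so these counts repeat some measurements. With 1 residual degree of freedom the spread of a peak was mostly borrowed from other peaks. The count of calls depended on how the libraries were scaled and on the control. With a trimmed mean computed without weights, 6 of the 29 were called, exact copies among them. With spb80 in place of spb75 replicate 2 in the control, 1 was called, the outer peak.

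The lowest adjusted p after 7 days was 0.0849, at the 3-copy peak chrI:5573443-5573482, its copy chrII:4518272-4518311 and the corresponding chrI:17929-17965. The level of the first 2 was 273 and 165 at 30 °C, 102 after 8 hours and 30.5 after 7 days, a log2 ratio of -2.76 (SE 0.56) and a level 7.18-fold lower after 7 days. The smallest ratio was -1.34 (SE 0.72, limma adjusted p = 0.602), at chrI:5572944-5573024 and its copy chrII:4517773-4517853, with 31.3 and 32.6 at 30 °C, 22.9 after 8 hours and 12.1 after 7 days. The largest, -4.25, was at the outer peak, whose replicates at 30 °C disagreed as given below. Beside the 31, the tlh peaks had a median log2 ratio of -2.31 after 7 days and the pericentromeric peaks one of -2.03, with 0 called in each group and an unadjusted p under 0.05 for 4 of 4 and 28 of 40.

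**Figure D3:**
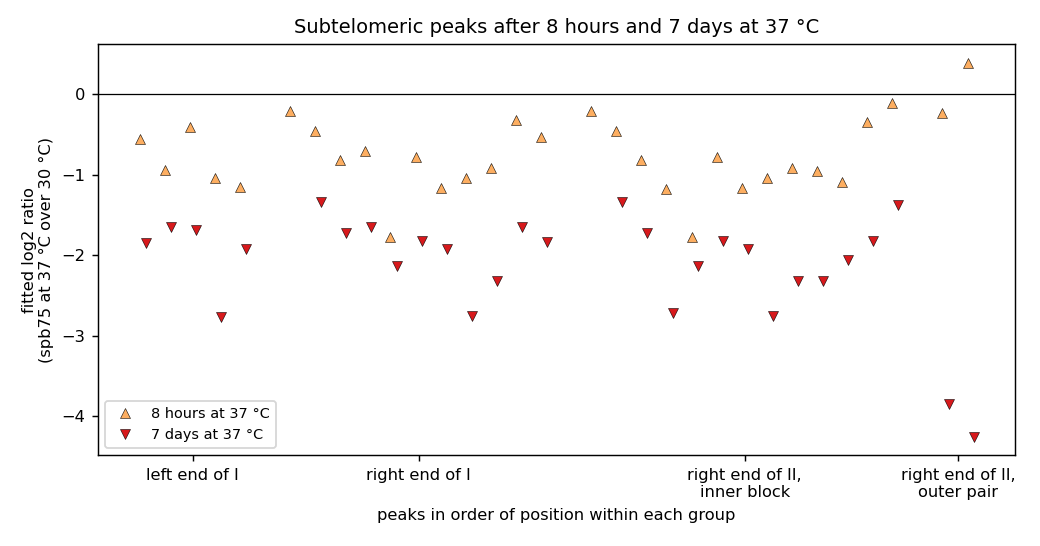
Fitted log2 ratio, spb75 at 37 °C over spb75 at 30 °C, after 8 hours (upward triangles) and after 7 days (downward triangles), for each of the 31 peaks in order of position within its block. All 29 ratios after 7 days lie below 0, and the outer pair of II holds the lowest; 2 peaks under the filter have no ratio after 7 days.

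The libraries at 37 °C were also set against each other, with the spread taken from the spb75 pair at 30 °C. All 29 tested peaks were lower after 7 days than after 8 hours, as were 53.9% of tested peaks, with a median log2 ratio of -1.28 against -0.08 over all tested peaks. By limma 0 of 29 were called, against 0.435% of tested peaks called lower, and 8 had an unadjusted p under 0.05 in the lower direction (background 8.12%). Those 8 include exact copies, which are the same measurement. The ratios ran from -4.64 (SE 1.40, adjusted p = 0.167) at the outer peak to -0.36 (SE 0.79, adjusted p = 0.925) at chrI:5573166-5573231. That peak had 14.5 after 8 hours and 11.1 after 7 days. All comparisons with spb75 at 30 °C share its 2 libraries.

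Between the wild-type strains at 30 °C, 0 of the 31 peaks were called by limma, against 0.0846% of tested peaks, and 2 had an unadjusted p under 0.05 (background 6.61%). Those 2 are exact copies and 1 measurement. The ratio of spb80 over spb75 there, the largest of the 31, was 1.44 (SE 0.55, adjusted p = 0.565), at chrI:5572944-5573024 and its copy on II, with 88.6 in spb80 and 31.3 and 32.6 in spb75. This peak was higher in spb80 than in both spb75 libraries. The smallest was -0.05 (SE 0.57), at chrII:4518846-4518891 in SPNCRNA.6641, with 147 in spb80 and 217 and 107 in spb75, and chrI:5573573-5573690 also had -0.05. The peak chrII:4518846-4518891 has exact copies at chrI:2988-3033, inside tlh1, and chrII:4529514-4529559, inside tlh2, so its reads may come from those genes.

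The outer pair on chromosome II differed between the replicates of 1 strain. The peak chrII:4525417-4525548 had a level of 0.297 in the library labelled dcr delta, against 149 in spb80, 414 in spb75 replicate 1 and 11.2 in replicate 2 at 30 °C. It had 92.1 after 8 hours at 37 °C and 2.73 after 7 days. In reads these were 0.5 in the library labelled dcr delta, 331.5 in spb80, 1268.5 and 21 in the spb75 replicates, 137.5 after 8 hours and 3.5 after 7 days. Its partner chrII:4524885-4524975 held 0.33 reads in the library labelled dcr delta, against 55.83 in spb80 and 169.5 and 2 in the spb75 replicates. It held 11.5 reads after 8 hours and none after 7 days. The same libraries were high and low in both peaks.

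As a ratio of levels plus 1, spb75 replicate 1 stood over replicate 2 by 34.1 at chrII:4525417-4525548 and by 32.0 at chrII:4524885-4524975. These ranked 10 and 12 of 8274 tested peaks by the size of the gap, and 14 tested peaks (0.169%) differed 16-fold or more. At the other 29 subtelomeric peaks the ratio ran from 0.835 to 2.02 with a median of 1.09, and over all tested peaks the median was 0.989. The identical stretch on chromosome I gave 33.4 at chrI:7004-7131 and 31.9 at chrI:7579-7665, which share reads with the pair. The tlh1 and tlh2 peaks gave 1.68 to 3.15.

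With these replicates apart, the outer pair had wide errors in each comparison. Its ratios in the library labelled dcr delta, -6.13 (SE 1.55) and -3.94 (SE 1.73), were called, among the alternatives run, when spb75 replicate 2 was left out (-7.59 and -5.42) and, for the first, with total scaling (-6.30). After 7 days at 37 °C they were -4.25 (SE 1.25, limma adjusted p = 0.164) and -3.85 (SE 3.10, adjusted p = 0.774), and after 8 hours 0.39 (SE 1.24) and -0.24 (SE 1.63). Without the pair, the sum over the other 29 peaks was 19.04 normalised reads in the library labelled dcr delta, against 3575 in spb80 and 3731 and 2728 in the spb75 replicates. It was 176-fold lower in the library labelled dcr delta, 1.61-fold lower after 8 hours and 3.84-fold lower after 7 days.

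**Figure D4:**
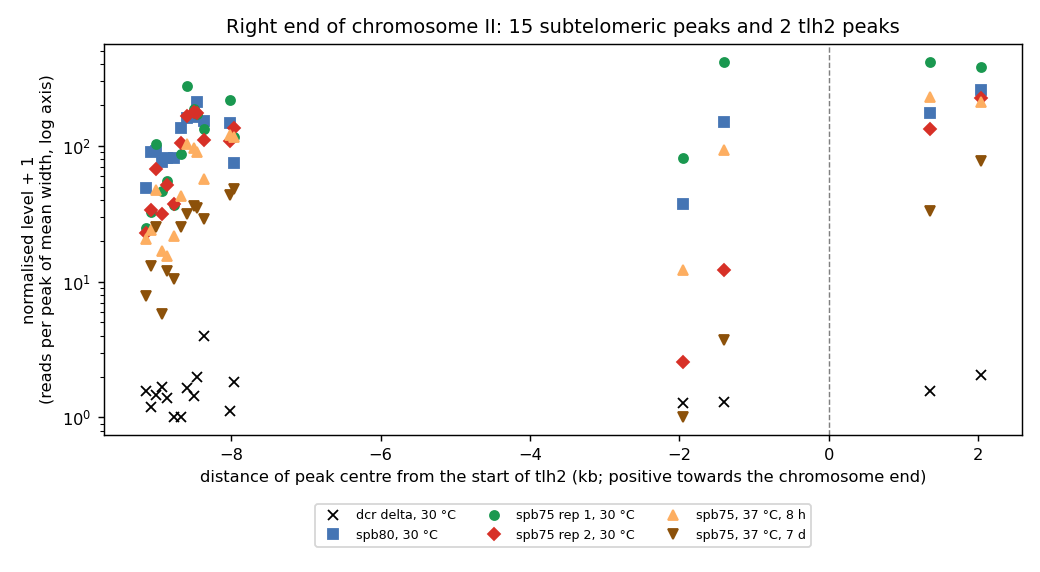
Normalised level plus 1 (log axis) of the 15 subtelomeric peaks and 2 tlh2 peaks at the right end of chromosome II, by distance of the peak centre from the start of tlh2 in kb, in the 6 libraries. In the outer pair, near 2 kb before tlh2, spb75 replicate 2 lies more than 30-fold under replicate 1 (32.0 and 34.1), while the ratio of the replicates was at most 2.02 in the inner block and 3.15 in tlh2.

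Peaks on genes of the pathway itself were counted as a background. Of 21 RNAi and heterochromatin genes 13 held a peak, and of 8 telomere protein genes 6 did. In the library labelled dcr delta 0 of 18 tested peaks of the first list were called (3 with an unadjusted p under 0.05), as were 0 of 13 of the second (1 with an unadjusted p under 0.05). The background at that p was 6.31% of tested peaks. After 8 hours at 37 °C, 2 of 19 peaks of the first list were called higher by limma, against 0.931% of tested peaks, and 4 had an unadjusted p under 0.05 in either direction (background 15.6%). They lay on swi6, which encodes an HP1-type protein that binds methylated histone H3 lysine 9 (log2 ratio 3.8, SE 0.53, adjusted p = 0.00447), and on eri1, which encodes an exonuclease that degrades siRNA, where it overlaps mmm1 (2.77, SE 0.59, adjusted p = 0.0442). Under the 11 alternatives the swi6 call held in 7 (limma adjusted p 0.000343 to 0.184) and the eri1 call in 4 (0.0154 to 0.382). Both calls were lost when spb80 took the place of either spb75 replicate in the control. The log2 ratios were then 3.69 and 3.77 for swi6 and 2.14 and 2.31 for eri1. The swi6 peak held 26 and 18 reads at 30 °C, 192 after 8 hours and 11 after 7 days. It was called lower after 7 days than after 8 hours (-3.86, SE 0.62, limma adjusted p = 0.0175). That call held under 5 of 11 alternatives (limma adjusted p 0.00223 to 0.996). It was lost when spb80 took the place of either spb75 replicate in the spread. After 7 days against 30 °C, 0 of 16 peaks of the first list were called, with 1 at an unadjusted p under 0.05 (background 9.51%). These peaks are small fragments over genes and do not measure the level of the mRNA.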

How the data were processed

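Per the labels, total RNA was extracted with hot phenol, and RNA of 18 to 28 nt was gel-purified and made into TruSeq small RNA libraries. The submitters' processing notes name CASAVA 1.8, Bowtie 0.9.9.1 and MACS, without a role or genome build. The deposited table gives 1 list of 11033 peaks shared by all libraries and a signal per peak and library. From its values, the deposited signal is reads times the mean peak width (70.96 bp) divided by the peak's width. A constant of 8 was taken off the columns of spb80 and dcr delta, whose smallest value it is, and dcr delta was divided by its step of 1.48 per read. Values came out as whole reads for 72.1 to 92.4% of peaks (tolerance 0.01), the rest mostly as fractions of reads with several matches. The column named for wild type at 30 °C without a strain was taken as spb80, the title left over.

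Signal was scaled by weighted trimmed means of log ratios (trim 30% of ratios and 5% of levels), written for this purpose after the TMM definition. An unweighted form was run first, and the weighted form was adopted after the calls of both had been seen. The lowest 25% of peaks by mean signal were dropped per comparison. limma 3.58.1 in R 4.3.3, with a trend in the prior variance, tested log2(signal + 1), 2-sided, with Benjamini-Hochberg adjustment over 8274 peaks. Ratios are on that scale and understate changes of low peaks. The tests were tried on simulated data. Depth was 5790804 to 15723318 reads over peaks. Sequences were matched to RefSeq assembly ASM294v3, and 1 shared base assigned a peak to a feature. The windows were chrI:17345-18054, chrI:5572876-5574063 and chrII:4517705-4528098.

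Values are given for the 3 highest peaks of each window, the largest and smallest ratio of each comparison, and the 5 outside peaks with the most similar profile. Others, such as the pair differing by 1 base, were chosen after their values were seen. The peaks, windows and gene lists were chosen with earlier results of these data known. Alternatives were other scalings, pseudocounts, filters, controls and left-out libraries.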

Additional observations from a re-analysis of the deposited data

How the results depend on the processing

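The count of 27 peaks called lower in the library labelled dcr delta stayed within 22 to 30 under every alternative run. With 1 wild-type library left out it was 22 to 29. No peak was called under any alternative run for 8 hours at 37 °C or for spb80 against spb75. For 7 days at 37 °C, 6 peaks were called with an unweighted trimmed mean and 0 to 1 with an spb75 replicate left out. Where a replicate was left out of a comparison of 37 °C with 30 °C, the control was the other replicate and spb80 together. For 7 days against 8 hours, 1 peak was called with an unweighted trimmed mean. With a replicate left out and spb80 in its place in the spread, 0 were called. The unweighted form and the left-out replicates of the last comparison were chosen after seeing the data. Total scaling moved the median of all tested peaks to -1.54 after 8 hours, -0.89 after 7 days, 0.613 for 7 days against 8 hours and 0.187 in the library labelled dcr delta, where the medians of the 31 peaks (29 in both 7-day comparisons) were -2.33, -2.76, -0.58 and -6.00. After 8 hours the ratio of chrII:4518903-4518934 changed sign, to 0.14 with 3 wild-type libraries as control and to 0.21 and 0.32 without spb75 replicate 1 and 2. That of chrII:4525417-4525548 turned to -1.12 with total scaling. With spb80 in place of 1 spb75 replicate in the control, it ran from -1.42 (without replicate 2) to 1.12 (without replicate 1). The share of reads on the 31 peaks was, in signal, 0.000668% in the library labelled dcr delta, 0.0224% after 8 hours, 0.0144% after 7 days and 0.113% in wild type at 30 °C. With tRNA and rRNA genes out of the denominator these were 0.00148%, 0.0888%, 0.0477% and 0.124%. With the added 8 kept, the share in the library labelled dcr delta was 0.00241%. The cause of these changes was not tested, beyond the change of unit or denominator itself. No paired analysis was possible because only spb75 at 30 °C has numbered replicates. Leaving out a replicate gives no test of spb80 against spb75, since no residual degree of freedom remains. With less than 1 read on 28 of the 31 peaks in the library labelled dcr delta, depth limits how low a level there can be shown.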

Other observations

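Among the 14 peaks where spb75 replicate 1 and 2 at 30 °C differed 16-fold or more, all higher in replicate 1, 4 were the outer pair of chromosome II and its copies on chromosome I. A further 9 lay in 1 stretch of a chromosome arm, chrI:2935459-2939735, on cbm1 and the lncRNAs SPNCRNA.3327, SPNCRNA.862 and SPNCRNA.863, with ratios of 48.0 to 180. These peaks were chosen after their values were seen, and the difference between replicates was not tested.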
